A study of Mus musculus with 6 samples.

Results

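The 39 genes described here are classical transcriptional targets of interferons, and were taken from the deposited table by gene symbol. All 39 symbols were found among the 47725 genes of that table. They fall into 27 genes best known as targets of type I interferon and 12 GTPase genes best known as targets of interferon-γ (IFN-γ), namely 8 guanylate-binding protein genes (Gbp) and the 4 immunity-related GTPase genes Irgm1, Irgm2, Igtp and Iigp1. Their mRNA was measured by RNA-seq in naive CD4+ T cells from wild-type C57BL/6 mice, polarized in culture for 3 days towards TH17 cells, the helper T cells that make IL-17. Of the 6 libraries, 3 came from cells cultured with CKBA, a derivative of the frankincense triterpenoid acetyl-keto-boswellic acid, and 3 from cells cultured with DMSO. No dose of CKBA was given in the sources used here. Every culture of either group received 10 µg/ml of an antibody against IFN-γ, 5 µg/ml of one against IL-4 and 2 µg/ml of one against CD28. Every culture also held IL-23, IL-6 and TGF-β1 (each cytokine at 10 ng/ml).

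Type I interferons signal through IFNAR1 and IFNAR2, the kinases JAK1 and TYK2, and a complex with STAT2 and IRF9 that binds the interferon-stimulated response element (ISRE) in target promoters. IFN-γ signals through IFNGR1 and IFNGR2, JAK1 and JAK2, and many of its target promoters hold the gamma-activated sequence (GAS). The transcription factor IRF1, induced by IFN-γ, then acts at ISRE-like sites, and guanylate-binding proteins and immunity-related GTPases attack the vacuoles and membranes of intracellular microbes. T cells use the same pathways, and IFN-γ from TH1 cells restrains the TH17 fate.

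Total counts lay between 19838347 and 25331863 per library. Replicate 3 of each group stood apart from replicates 1 and 2. On the second principal component, which held 25.25% of the variance, the replicates 3 lay at -34.78 (CKBA) and -33.3 (DMSO), and the other 4 libraries between 10.54 and 25.28. Counts of replicates 1 and 2 differed by a chi-square of 2.84 per gene with CKBA and 3.34 with DMSO, against 34.5 to 37.8 for pairs that included a replicate 3. The labels do not say that replicates were separate cultures or animals. The p-values therefore cover the spread among these 6 libraries alone, and that spread may be technical. The labels name epidermis as the tissue beside CD4+ T cells as the cell type. All 8 T cell markers were abundant enough to test, Cd4 at 363 ± 87.6 CPM with CKBA and 474 ± 23.2 CPM with DMSO (mean ± SD, n = 3 each), and the 8 summed to 2066 to 2256 CPM with CKBA and 2690 to 2752 CPM with DMSO. Of 20 keratinocyte markers, 11, Krt14, Krt1 and Trp63 among them, had no count in any library, and 7 passed the filter. The list summed to 153 to 209 CPM with CKBA and 143 to 182 CPM with DMSO, mostly from Itga6, an integrin that is not specific to keratinocytes. CPM are counts scaled to the total of each library after TMM normalization, so that levels of a gene can be compared between libraries.

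The interferon genes did not move as a group. Of the 31 members that passed the filter on low counts, 4 were higher and 6 lower with CKBA at an adjusted p under 0.05 (quasi-likelihood test of edgeR, Benjamini-Hochberg adjustment over all genes tested). Among the type I targets, 19 of 27 were tested, and Ifit2, Ifih1 and Ifi35 rose while Irf7, Parp14 and Zbp1 fell. All 12 GTPase genes were tested, and Gbp9 rose while Gbp2, Gbp3 and Gbp5 fell. The share called was 31.6% of the tested type I targets and 33.3% of the GTPase genes, against 17.1% of all 13928 genes tested (7.86% higher and 9.23% lower). The CKBA and DMSO values did not overlap for 15 of the 31 members, 8 above and 7 below, against 36.6% of all genes (18.2% above and 18.4% below). The median log2 fold change of CKBA over DMSO was 0.03 for the type I targets and -0.02 for the GTPase genes, against 0.005 over all genes tested. Single members spread widely around these medians, with an SD of 0.73 among the tested type I targets and 1.17 among the GTPase genes. No test of the difference between the families was made, since the genes within each share regulators and are not replicates. In bulk RNA, a lower level in each cell and fewer cells that express a gene cannot be told apart.

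These counts depended on how the replicates were handled. With the replicate number as a block, 5 type I targets were higher and 5 lower, and 2 GTPase genes were higher and 3 lower, against 28.2% of all genes called (13.8% higher and 14.4% lower). With replicate 3 of both groups left out, 5 type I targets were higher and 7 lower and 3 GTPase genes were higher and 5 lower, against 52.8% of all genes (26.1% higher and 26.6% lower). With replicates 1 and 2 of each group summed into a single library, 0 of the 39 members were called by edgeR (8 at an unadjusted p under 0.05), against 0.732% of all genes (0.372% higher and 0.359% lower). Leaving out single libraries moved the counts over all genes as well. None of the 10 calls remained without CKBA replicate 2, DMSO replicate 1 or DMSO replicate 2, when 5.52%, 4.8% and 4.48% of all genes were called. Without CKBA replicate 1 only Ifih1 of the 10 stayed past the threshold (5.59% of all genes called). Without CKBA replicate 3 the calls of Gbp2, Gbp5 and Ifit2 were lost (27.9% of all genes), and without DMSO replicate 3 all 10 remained (21.9% of all genes). Under other tools and scalings the share of all genes called was 17% with RLE scaling, 18.7% with DESeq2 (8.61% higher and 10.1% lower), 9.73% with every gene of at least 1 count tested (4.77% higher and 4.97% lower), 14.6% with limma on log2(FPKM + 1) (6.42% higher and 8.15% lower) and 15.3% on log2(FPKM + 0.1) (6.76% higher and 8.5% lower).

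**Figure D1:**
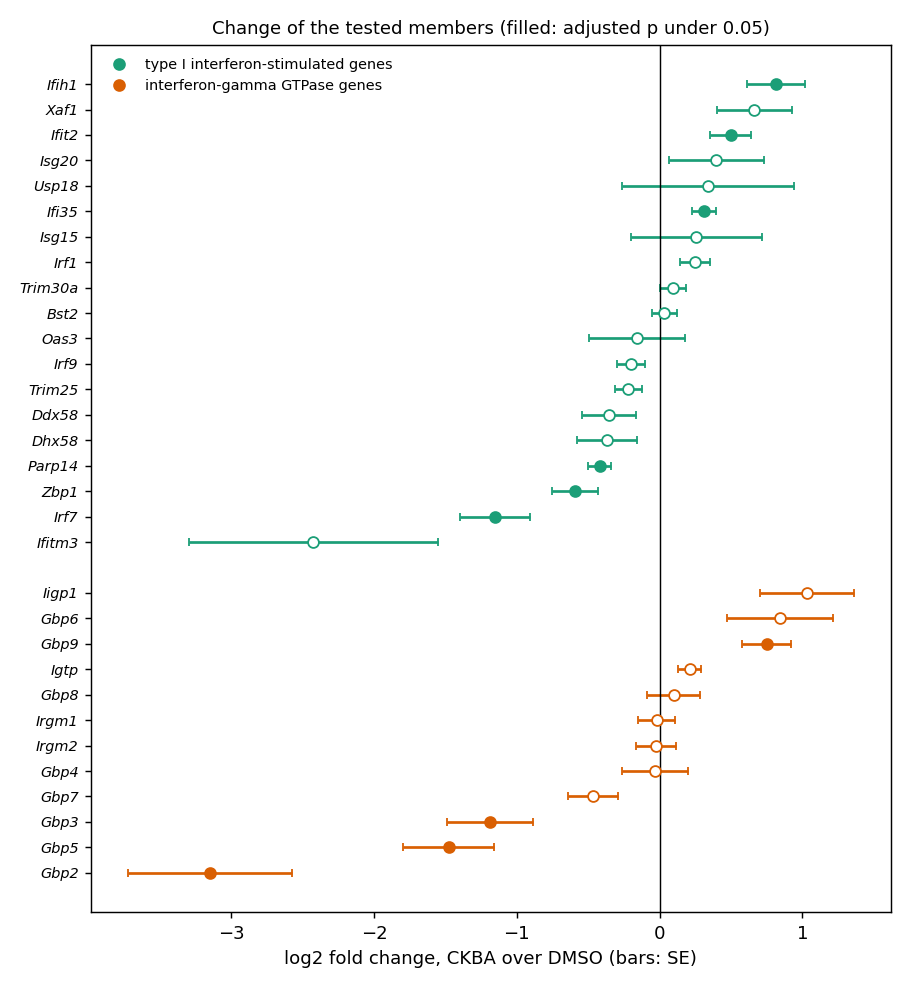
Log2 fold change of CKBA over DMSO (horizontal axis, points with SE from edgeR's quasi-likelihood fit, n = 3 libraries per group) for the 31 tested members, by family. Filled points have an adjusted p under 0.05; Gbp2 lies at -3.15 and Iigp1, not past the threshold, at 1.03.

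The largest change among the 31 tested members was that of Gbp2, in a cluster of guanylate-binding genes on chromosome 3. Gbp2, Gbp3 and Gbp5 were lower with CKBA in every replicate pair, and the summed level of these genes with their neighbour Gbp7 was 112.8 to 234.1 CPM with CKBA and 448.4 to 1442 CPM with DMSO. Gbp2 alone made up 41.8 to 133 CPM of that sum with CKBA and 323 to 1166 CPM with DMSO, so the sum mostly reflects Gbp2. Of these 4 genes 3 fell and 0 rose, against 9.23% lower and 7.86% higher of all genes. The split of the Gbp genes by chromosome was made after their values were seen, and the difference between the clusters was not tested.

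Gbp2 (ENSMUSG00000028270; GRCm38 chr3:142620602-142638008, plus strand) encodes a prenylated GTPase that coats pathogen vacuoles. It stood at 133, 122 and 41.8 CPM in CKBA replicates 1, 2 and 3, against 1166, 1139 and 323 CPM in DMSO replicates 1, 2 and 3. Every CKBA library lay below every DMSO library, and replicate 3 was the lowest of its group on both sides. The fall was 8.87-fold, a log2 fold change of -3.15 ± 0.58 (SE; edgeR adjusted p = 0.0106). Within pairs of the same replicate number the log2 ratio was -3.13, -3.22 and -2.94, so the size of the difference varied little while the level did: replicate 3 lay 3.03-fold below the mean of replicates 1 and 2 with CKBA and 3.56-fold below it with DMSO. Without each library in turn, the adjusted p was at most 0.0782. Of the 50-base sequences of Gbp2, 2.03% also occur in another gene. On the authors' length-scaled FPKM, Gbp2 averaged 38.9 ± 19.3 with CKBA and 346.5 ± 186 with DMSO (SD, n = 3 each). It was the highest of the 39 members in DMSO cultures by that measure, and in every CKBA library it came after Igtp, at 78.6 ± 5.68 FPKM. It lay above Bst2, at 42.3 ± 1.39 FPKM, in CKBA replicates 1 and 2 and below it in replicate 3.

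Gbp5 (chr3:142493978-142522344, plus strand), whose protein is known for promoting NLRP3 inflammasome assembly, stood at 60.6, 60.1 and 45.2 CPM with CKBA, against 201, 183 and 77.7 CPM with DMSO. No CKBA value reached the lowest DMSO value, and the gap was smallest in replicate 3. The log2 fold change was -1.48 ± 0.32 (edgeR adjusted p = 0.0191). Gbp3 (chr3:142560026-142573209, plus strand) stood at 26.6, 25.5 and 12.6 CPM with CKBA, against 55.5, 57.6 and 33.9 CPM with DMSO. Again the groups did not overlap, and replicate 3 was lowest on both sides. Its log2 fold change was -1.19 ± 0.30 (edgeR adjusted p = 0.0327). With each of the libraries left out in turn, the adjusted p reached 0.124 for Gbp5 and 0.135 for Gbp3. With every gene of at least 1 count tested in place of the filter, the edgeR adjusted p was 0.112 for Gbp2, 0.160 for Gbp5 and 0.198 for Gbp3, with nearly the same fold changes (-3.14, -1.47 and -1.18).

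Gbp7 (chr3:142530342-142550149, plus strand), which lies between Gbp5 and Gbp3, stood at 13.8, 10.8 and 13.2 CPM with CKBA and 19.8, 18.7 and 13.7 CPM with DMSO. CKBA replicate 1 lay just above DMSO replicate 3, so the groups overlapped, and the change of -0.47 ± 0.17 on the log2 scale was not past the threshold (edgeR adjusted p = 0.101). Gbp2b, the remaining guanylate-binding gene of the cluster and no member here, averaged 1.40 ± 0.28 CPM with CKBA and 2.22 ± 1.22 CPM with DMSO (edgeR adjusted p = 0.297). The other genes tested within 200 kb, Pdlim5, Kyat3, Gtf2b, Pkn2 and Gm25965, had log2 fold changes between -0.09 and 0.10 (lowest edgeR adjusted p = 0.502).

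**Figure D2:**
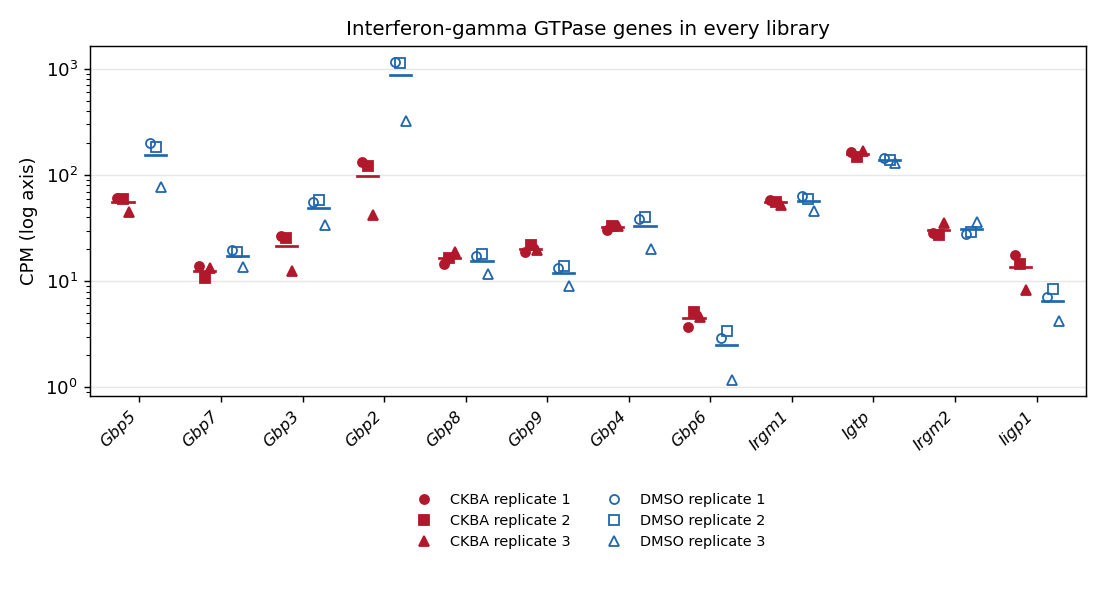
CPM (log axis) of the 12 GTPase genes in each library, CKBA (filled) left of DMSO (open), bars at the group means, in chromosomal order. Gbp2 reads 41.8 to 133 CPM with CKBA and 323 to 1166 CPM with DMSO, while Irgm1 and Irgm2 overlap between the groups.

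The promoters of Gbp2, Gbp3, Gbp5 and Gbp7 are printed with those of Igtp and Isg15, which lie on other chromosomes. Interferon motifs sat before the RefSeq start of genes called lower and of genes not called. The GENCODE models of Gbp2 and Gbp5, whose positions are given above, begin further upstream. The printed matches of Gbp2 and Gbp5 therefore lie within those models and not upstream of them. Gbp7, not called in the main test, was lower with CKBA in each pair. In pair 3 its log2 ratio was only -0.05. It was called lower without replicate 3 of both groups (edgeR adjusted p = 1.9e-07). That setting was chosen after seeing the data, and 52.8% of all genes were called under it. It rests on replicates 1 and 2, whose spread may be technical. Whether the motifs bear on the changes was not tested. RefSeq promoter windows of GRCm38.p6 (250 bases before to 50 after the annotated start) were searched on both strands for an ISRE core (TTTC and TTTC with any 2 bases between them) and a GAS core, TTCNNNGAA. All 7 GTPase genes with a window held the ISRE letters, and 4 of them the GAS letters. Of the 20 type I targets with a window, 11 (55.0%) held the ISRE and 7 (35.0%) the GAS, against 3.99% and 9.55% of 27025 genes. Gbp4, Gbp6, Gbp8, Gbp9, Iigp1, Parp14, Zbp1, Dhx58, Usp18, Mx1, Rtp4 and Oas2 had no window. The stretches below begin 200 bases before the annotated start and run 5′ to 3′ on the strand of the gene. Matches on either strand are in capitals. Igtp and Isg15 stand for genes with matches that were not called, which does not mean unchanged. Igtp was higher with CKBA without overlap (log2 fold change 0.21 ± 0.08, edgeR adjusted p = 0.111). Isg15, at 7 to 20 counts per library, was too low for a change to be judged (0.26 ± 0.46). A match is a description of these letters and not a measured binding site.
Gbp2, chr3:142620463-142620631, plus strand: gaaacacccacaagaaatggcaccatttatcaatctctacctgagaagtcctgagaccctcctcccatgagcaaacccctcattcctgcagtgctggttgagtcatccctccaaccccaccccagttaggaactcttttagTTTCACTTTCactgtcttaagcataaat
Gbp3, chr3:142559844-142560043, plus strand: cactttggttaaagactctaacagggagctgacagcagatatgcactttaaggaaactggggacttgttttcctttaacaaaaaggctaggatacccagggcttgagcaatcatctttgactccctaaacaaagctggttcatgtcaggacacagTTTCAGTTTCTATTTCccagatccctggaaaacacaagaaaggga
Gbp5, chr3:142496734-142496929, plus strand: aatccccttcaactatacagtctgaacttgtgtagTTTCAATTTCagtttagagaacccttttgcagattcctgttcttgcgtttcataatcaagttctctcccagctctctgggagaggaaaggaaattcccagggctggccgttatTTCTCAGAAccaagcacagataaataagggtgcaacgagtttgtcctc
Gbp7, chr3:142530136-142530335, plus strand: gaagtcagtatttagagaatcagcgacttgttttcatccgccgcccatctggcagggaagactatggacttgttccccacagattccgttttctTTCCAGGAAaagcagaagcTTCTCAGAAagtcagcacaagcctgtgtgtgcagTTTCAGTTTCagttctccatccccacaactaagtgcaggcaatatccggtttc
Igtp, chr11:58199356-58199555, plus strand: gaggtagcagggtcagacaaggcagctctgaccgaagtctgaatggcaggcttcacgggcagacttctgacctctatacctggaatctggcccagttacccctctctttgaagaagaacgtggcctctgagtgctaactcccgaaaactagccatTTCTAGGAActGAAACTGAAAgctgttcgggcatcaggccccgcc
Isg15, chr4:156200819-156201018, minus strand: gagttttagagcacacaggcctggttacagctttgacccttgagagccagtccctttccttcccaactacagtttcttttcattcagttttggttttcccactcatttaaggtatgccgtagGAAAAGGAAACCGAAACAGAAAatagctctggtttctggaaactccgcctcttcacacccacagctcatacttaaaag
Gbp2 and Gbp3 held ISRE letters and no GAS letters, Gbp3 with a pair of matches that overlap. Gbp5, which fell, and Gbp7, which was not past the threshold, both held an ISRE match and GAS matches, a further GAS match of Gbp5 lying upstream of the printed stretch. In the stretches printed no ISRE match overlapped a GAS match, while in the windows of Bst2 and Ifitm3 they overlapped. Igtp held a GAS match directly upstream of an ISRE match, and Isg15 held 3 overlapping ISRE matches and no GAS match.

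Of the chromosome 5 members Gbp4, Gbp6, Gbp8 and Gbp9, 1 rose and 0 fell, against 7.86% higher and 9.23% lower of all genes. The summed level of these members was 67.3 to 77.4 CPM with CKBA and 42.2 to 75.6 CPM with DMSO. Their gene models lie on the minus strand close together, and those of Gbp4, Gbp8 and Gbp9 overlap, so reads may have been divided between them by the authors' counting. Of the 50-base sequences of Gbp6, 70.65% also occur in other genes, of which Gm43302 shares the most. For Gbp8 the share was 18.12%, with Gbp11 sharing the most. The symbol Gbp6 stood for 2 gene identifiers, and the values given are those of ENSMUSG00000104713 alone. Gbp11, a neighbour that is no member here, averaged 0.54 CPM with CKBA and 1.22 CPM with DMSO (log2 fold change -1.14 ± 0.53, edgeR adjusted p = 0.173).

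Gbp9 stood at 18.8, 22.1 and 19.8 CPM with CKBA, against 13.2, 13.8 and 9.09 CPM with DMSO. All CKBA values lay above all DMSO values, by 0.75 ± 0.17 on the log2 scale (edgeR adjusted p = 0.0232, and at most 0.0944 with a library left out). Gbp6 had 3.71, 5.17 and 4.61 CPM with CKBA and 2.95, 3.39 and 1.18 CPM with DMSO, which did not overlap but missed the threshold (log2 fold change 0.85 ± 0.37, edgeR adjusted p = 0.158). Gbp4 stood at 30.3, 33.4 and 33.1 CPM with CKBA and 38.4, 40.5 and 20.2 CPM with DMSO. Gbp8 stood at 14.6, 16.7 and 18.9 CPM with CKBA and 17.3, 17.9 and 11.7 CPM with DMSO. Both overlapped between the groups, with edgeR adjusted p of 0.941 for Gbp4 and 0.754 for Gbp8. Both were lower with CKBA in pairs 1 and 2 and higher in pair 3. Without replicate 3 of both groups, when 52.8% of all genes were called, Gbp4 was called lower (log2 fold change -0.31, edgeR adjusted p = 0.000465). In DMSO cultures all 4 genes were lowest in replicate 3, as Gbp2 was. Within pairs, the median log2 ratio of these 4 genes was 0.02, 0.22 and 0.89 in replicates 1, 2 and 3, against -1.38, -1.38 and -1.08 for the 4 genes on chromosome 3.

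**Figure D3:**
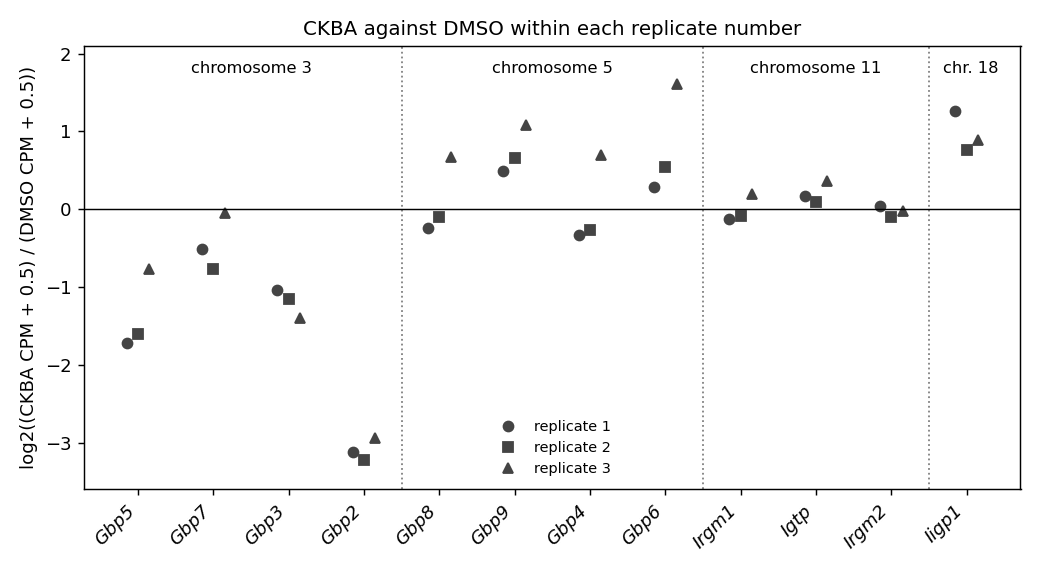
Log2 ratio of CKBA over DMSO within each replicate number (vertical axis, 0.5 CPM added to both) for the GTPase genes by chromosome, 1 point per replicate. The 3 points of Gbp2 sit between -3.22 and -2.94, and those of Gbp4 and Gbp8 lie below 0 in replicates 1 and 2 and above it in replicate 3.

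Among the immunity-related GTPases, edgeR called 0 of 4 (2 at an unadjusted p under 0.05), against 17.1% of all genes. DESeq2 called 1 of the 4, Iigp1, against 18.7% of all genes. Igtp, known as Irgm3 and by length the most abundant of them, stood at 164, 148 and 168 CPM with CKBA, against 145, 139 and 130 CPM with DMSO. The CKBA values lay above the DMSO values by a small margin that missed the threshold (log2 fold change 0.21 ± 0.08, edgeR adjusted p = 0.111). Irgm1, which regulates autophagy and other GTPases of the family, had 58.4, 55.9 and 52.5 CPM with CKBA and 63.8, 59.6 and 45.9 CPM with DMSO, and Irgm2 had 28.7, 27.3 and 35.4 CPM with CKBA and 27.9, 29.3 and 35.9 CPM with DMSO. Both overlapped, with fold changes of -0.02 ± 0.13 for Irgm1 and -0.02 ± 0.14 for Irgm2 on the log2 scale (edgeR adjusted p = 0.928 and 0.923). Iigp1, an effector GTPase that strips parasite vacuoles, had 17.6, 14.6 and 8.32 CPM with CKBA and 7.07, 8.44 and 4.24 CPM with DMSO. The pair with the number 3 was lowest on both sides, and CKBA replicate 3 lay just under DMSO replicate 2. Its log2 fold change of 1.03 ± 0.33 missed the threshold (edgeR adjusted p = 0.0658) and passed it with the replicate block (adjusted p = 0.00247) and with DESeq2 (adjusted p = 0.00707).

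Among the transcription factors of the pathway, Irf7 fell and the other 2 listed were not past the threshold. Irf7, the factor that amplifies type I interferon production, stood at 2.12, 1.90 and 2.81 CPM with CKBA, against 5.39, 5.79 and 4.10 CPM with DMSO. The groups were apart, with a log2 fold change of -1.15 ± 0.25 (edgeR adjusted p = 0.0186, at most 0.0918 with a library left out). Irf1, the IFN-γ-induced factor that in turn drives many GTPase genes, had 63.5, 65.5 and 74.9 CPM with CKBA and 52.3, 56.3 and 63.2 CPM with DMSO. Its values lay slightly higher with CKBA in each pair, at 0.25 ± 0.10 on the log2 scale (edgeR adjusted p = 0.138, and 0.030 with the replicate block). Irf9, the DNA-binding subunit of the complex with STAT2, had 56.9, 58.0 and 61.3 CPM with CKBA and 66.9, 60.0 and 75.3 CPM with DMSO (log2 fold change -0.20 ± 0.10, edgeR adjusted p = 0.209).

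The 5 genes listed for nucleic acid sensing were Ifih1, Zbp1, Ddx58, Dhx58 and Trim25, the last described below with the regulators. Of these 5 genes, 1 rose and 1 fell, against 7.86% higher and 9.23% lower of all genes. Ifih1, which encodes the RNA sensor MDA5, stood at 4.50, 5.85 and 6.29 CPM with CKBA, against 3.20, 3.19 and 3.06 CPM with DMSO. All CKBA libraries were higher, by 0.82 ± 0.20 on the log2 scale (edgeR adjusted p = 0.0307, at most 0.116 with a library left out and 0.0629 to 0.0759 by limma on FPKM). Zbp1, a Z-nucleic acid sensor that can trigger necroptosis, stood at 19.8, 18.2 and 27.8 CPM with CKBA, against 33.8, 34.1 and 31.4 CPM with DMSO. All CKBA libraries were lower, replicate 3 by the least, with a log2 fold change of -0.59 ± 0.16 (edgeR adjusted p = 0.0400, at most 0.145 with a library left out). Ddx58, the RIG-I gene, had 21.7, 20.9 and 32.9 CPM with CKBA and 28.4, 31.5 and 36.9 CPM with DMSO, an overlap from replicate 3 alone. Its log2 fold change of -0.36 ± 0.19 missed the threshold (edgeR adjusted p = 0.236) and passed it with the replicate block (adjusted p = 0.0278). Dhx58, the LGP2 gene, had 5.83, 6.38 and 8.16 CPM with CKBA and 8.34, 10.8 and 7.20 CPM with DMSO (edgeR adjusted p = 0.270). Oas3, which makes the activator of the ribonuclease RNase L, was listed with the antiviral effectors. It had 1.38, 2.14 and 2.07 CPM with CKBA and 1.53, 1.82 and 2.92 CPM with DMSO (edgeR adjusted p = 0.779).

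The classical antiviral effectors were close to the detection limit. Ifit1, Ifit3, Mx1, Oas1a, Oas2, Oasl2, Rsad2 and Rtp4 failed the filter, and their counts were 0 to 18 per library, where 3 counts correspond to 0.117 to 0.152 CPM. Rsad2, the viperin gene, had 0, 0 and 2 counts with CKBA and 1, 0 and 0 with DMSO, and Mx1 had 1, 1 and 4 with CKBA and 2, 0 and 3 with DMSO. Oas1a had 8, 7 and 14 counts with CKBA and 5, 5 and 2 with DMSO, and Rtp4 had 4, 16 and 18 with CKBA and 2, 5 and 3 with DMSO. The Oas1a groups did not overlap, and the other 7 did. Tested without the filter, none of the 8 passed, the lowest edgeR adjusted p being 0.134 for Rtp4 (log2 fold change 1.76 ± 0.72), with 0.403 for Oas1a (1.12 ± 0.70), and DESeq2 gave an adjusted p to 5 of them, the lowest 0.187 for Rtp4. Oas1a and Ifit3 share 57.57% and 51.24% of their 50-base sequences with other genes. Isg15, the ubiquitin-like modifier, was tested but also low, at 0.35, 0.49 and 0.78 CPM with CKBA and 0.46, 0.34 and 0.56 CPM with DMSO (log2 fold change 0.26 ± 0.46, edgeR adjusted p = 0.736). In all, 9 of the 39 members, Isg15 and those 8, stayed under 1 CPM in every library.

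Of the effectors that were measurable, Ifit2, an RNA-binding inhibitor of translation, was the only one called. It stood at 18.0, 17.6 and 20.8 CPM with CKBA, against 12.3, 12.1 and 15.6 CPM with DMSO. The groups did not overlap, and the change of 0.50 ± 0.14 on the log2 scale was just past the threshold (edgeR adjusted p = 0.0485, at most 0.181 with a library left out and 0.0768 to 0.0781 by limma on FPKM). Bst2, the gene of the virion tether tetherin, had 34.0, 32.5 and 30.9 CPM with CKBA and 30.5, 31.7 and 32.8 CPM with DMSO (edgeR adjusted p = 0.820). Ifitm3, which blocks viral entry, had 0.64, 0.05 and 0.08 CPM with CKBA and 1.98, 1.62 and 0.47 CPM with DMSO. CKBA replicate 1 lay above DMSO replicate 3, and the difference missed the threshold (edgeR adjusted p = 0.0909) and passed it with the replicate block (adjusted p = 0.0148) and with DESeq2 (adjusted p = 0.0344).

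Modifiers and regulators of the response were higher, lower or level. Parp14, an ADP-ribosyltransferase, stood at 88.5, 84.5 and 96.4 CPM with CKBA, against 118, 127 and 116 CPM with DMSO. All CKBA values were lower, with a log2 fold change of -0.42 ± 0.08 (edgeR adjusted p = 0.0128, at most 0.0710 with a library left out). Ifi35 stood at 39.7, 36.0 and 37.6 CPM with CKBA, against 29.6, 30.1 and 31.4 CPM with DMSO. The CKBA values were higher by 0.31 ± 0.08 on the log2 scale (edgeR adjusted p = 0.0403, at most 0.166 with a library left out and 0.0813 without the filter), and 16.79% of its exon bases are shared with Gm11626 on the other strand. Xaf1, an antagonist of the apoptosis inhibitor XIAP, had 3.16, 3.70 and 4.37 CPM with CKBA and 1.83, 2.31 and 2.97 CPM with DMSO, which did not overlap but missed the threshold (log2 fold change 0.66 ± 0.26, edgeR adjusted p = 0.121; 0.0461 with the replicate block). Usp18, the inhibitor of IFNAR2 signalling that also removes ISG15, had 1.58, 1.02 and 3.28 CPM with CKBA and 1.02, 0.74 and 2.92 CPM with DMSO. Replicate 3 of each group was highest, and the groups overlapped (edgeR adjusted p = 0.736). Trim25, the ubiquitin ligase for RIG-I, had 67.7, 65.5 and 80.5 CPM with CKBA and 83.9, 82.8 and 82.2 CPM with DMSO (edgeR adjusted p = 0.147). Trim30a had 39.9, 44.9 and 44.8 CPM with CKBA and 43.4, 38.7 and 39.5 CPM with DMSO (edgeR adjusted p = 0.531), and Isg20, a 3′ exonuclease gene, 1.28, 2.53 and 2.30 CPM with CKBA and 1.73, 1.28 and 1.65 CPM with DMSO (edgeR adjusted p = 0.446).

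**Figure D4:**
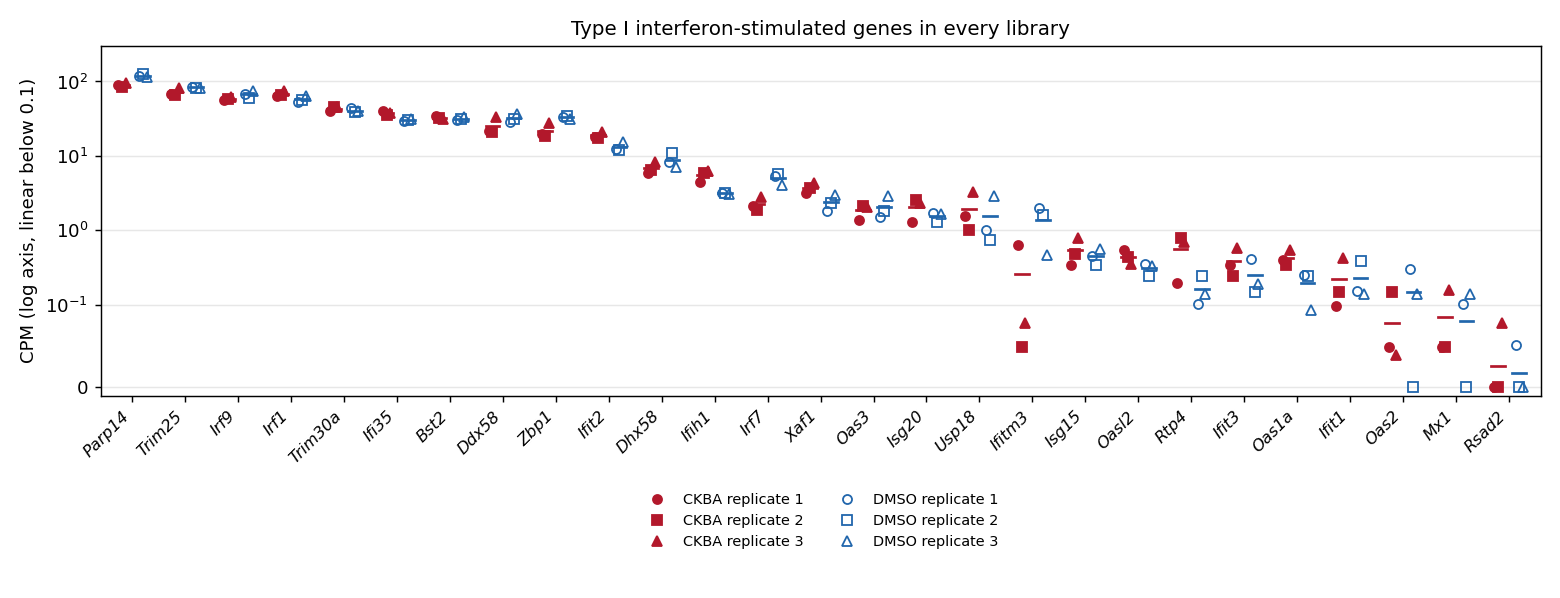
CPM (log axis, linear below 0.1) of the 27 type I interferon targets in each library, sorted by level, CKBA (filled) left of DMSO (open), bars at the group means. Irf7 and Zbp1 are lower with CKBA in every library, Ifih1 and Ifi35 higher, and Isg15 lies under 1 CPM throughout.

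Around the members, genes of the interferon pathway were counted by their roles. Of 11 interferon ligand genes, Ifng was the only one tested, and 9 had no count in any library. Ifng, the IFN-γ gene, stood at 16.7, 21.3 and 10.7 CPM with CKBA, against 5.24, 5.10 and 4.85 CPM with DMSO. All CKBA libraries were above all DMSO libraries, by 1.68 ± 0.25 on the log2 scale (edgeR adjusted p = 0.00484), and the call held with each library left out. With replicates 1 and 2 summed it was lost (adjusted p = 0.108). Ifng mRNA was higher in the cultures in which Gbp2, Gbp3 and Gbp5 were lower and Gbp9 was higher. Among the CKBA libraries, replicate 3 was lowest for both Ifng (10.7 CPM) and Gbp2 (41.8 CPM), while Ifng was highest in replicate 2 and Gbp2 in replicate 1. Among the DMSO libraries Ifng varied little, and Gbp2 stood at 1166, 1139 and 323 CPM in replicates 1, 2 and 3. Each culture held antibody to IFN-γ. A link between Ifng and the GTPase genes was not tested.

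Of 5 tested interferon receptor chains 0 rose and 1 fell, against 7.86% higher and 9.23% lower of all genes. With the replicate block 1 rose and 2 fell, against 13.8% and 14.4% of all genes. Ifngr1, the ligand-binding chain for IFN-γ, stood at 121, 114 and 149 CPM with CKBA, against 172, 165 and 199 CPM with DMSO (log2 fold change -0.48 ± 0.12, edgeR adjusted p = 0.0295). Each CKBA value lay below each DMSO value. The call was lost without CKBA replicate 1 or 2, or any DMSO replicate. Ifngr2 had a log2 fold change of -0.32 ± 0.10 (edgeR adjusted p = 0.0635, and 0.00970 with the replicate block). Il10rb, a chain shared by the receptors of interferon-λ and IL-10, had 40.9, 43.5 and 42.3 CPM with CKBA and 28.2, 30.5 and 37.5 CPM with DMSO. Its groups did not overlap, and it was higher by 0.40 ± 0.12 on the log2 scale, short of the threshold (edgeR adjusted p = 0.0532, and 0.0173 with the block). The type I receptor genes Ifnar1 and Ifnar2 differed by 0.08 ± 0.13 and 0.03 ± 0.11 on the log2 scale (edgeR adjusted p = 0.730 and 0.875). Behind the receptors, Stat2, Jak2 and Tyk2 had log2 fold changes of -0.15 ± 0.12, -0.11 ± 0.14 and -0.22 ± 0.09, and Jak1 one of -0.22 ± 0.07 (edgeR adjusted p = 0.0729, and 0.0479 with the replicate block).

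Of 10 inhibitors of interferon signalling 0 rose and 2 fell (20% called), against 7.86% higher and 9.23% lower of all genes. With the replicate block 2 rose and 2 fell, against 13.8% and 14.4% of all genes. Socs3, an inhibitor induced by IL-6 and STAT3, averaged 301 ± 20.1 CPM with CKBA and 576 ± 103 CPM with DMSO (log2 fold change -0.94 ± 0.13, edgeR adjusted p = 0.00358, and 0.0745 with replicates 1 and 2 summed). Irf2, a repressor at IRF sites, differed by -0.27 ± 0.07 (edgeR adjusted p = 0.0370), and its call was lost without CKBA replicate 1 or 2 or DMSO replicate 1 or 2. Socs1, the inhibitor of JAK kinases that IFN-γ induces, averaged 112.5 ± 36.3 CPM with CKBA and 93.9 ± 32.9 CPM with DMSO (edgeR adjusted p = 0.557, and 0.0152 with the replicate block). Cish, a STAT5-induced inhibitor of cytokine receptors, differed by 0.46 ± 0.17 (edgeR adjusted p = 0.105, and 0.00179 with the block). Of 13 tested sensors and adaptors upstream of interferon, 1 rose and 3 fell (30.8% called, against 17.1% of all genes). With the block 4 rose and 4 fell, against 13.8% and 14.4% of all genes. Without replicate 3 of both groups 5 rose and 5 fell, against 26.1% and 26.6% of all genes. Irf5, a factor that acts downstream of Toll-like receptors, rose by 1.15 ± 0.23 on the log2 scale (edgeR adjusted p = 0.0144). The adaptor gene Ticam1 fell by 0.77 ± 0.11 (edgeR adjusted p = 0.00511, and 0.138 with replicates 1 and 2 summed), Tmem173, the STING gene, by 0.68 ± 0.11 (0.00843), and the kinase gene Tbk1 by 0.27 ± 0.08 (0.0469). The Irf5 call was lost without DMSO replicate 1 or 2, that of Tmem173 without DMSO replicate 2, and that of Tbk1 without CKBA replicate 1 or 2 or DMSO replicate 1 or 2. Irf3, the factor these kinases activate, differed by -0.01 ± 0.08 (edgeR adjusted p = 0.930).

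Interferon-stimulated genes beyond the members gave 0 higher and 8 lower of 39 tested. The 20.5% called were all lower, against 7.86% higher and 9.23% lower of all genes. With the replicate block 6 were higher and 10 lower, against 13.8% and 14.4% of all genes. Without replicate 3 of both groups 9 were higher and 16 lower, against 26.1% and 26.6% of all genes. Slfn1, a growth-regulatory gene of T cells, averaged 20.4 ± 0.45 CPM with CKBA and 67.2 ± 14.2 CPM with DMSO (log2 fold change -1.72 ± 0.16, edgeR adjusted p = 0.000750). Samhd1, which degrades dNTPs, averaged 568 ± 40.2 CPM with CKBA and 884 ± 48.2 CPM with DMSO (edgeR adjusted p = 0.00285). Ifi27l2a and Helz2 fell by 0.68 ± 0.11 and 0.55 ± 0.10 on the log2 scale (edgeR adjusted p = 0.00683 and 0.0111). The calls of Slfn1, Samhd1 and Ifi27l2a held with each library left out. With replicates 1 and 2 summed, that of Slfn1 held (adjusted p = 0.0445), and those of Samhd1 (0.124) and Ifi27l2a (0.149) were lost. The call of Helz2 was lost without CKBA replicate 1 or 2 or DMSO replicate 2. Eif2ak2, the PKR gene, and Adar, the RNA editor, differed by 0.10 ± 0.11 and -0.04 ± 0.07 (edgeR adjusted p = 0.578 and 0.767).

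Other IFN-γ-induced genes gave 2 higher and 5 lower of 14 tested, against 7.86% and 9.23% of all genes. With the replicate block 3 were higher and 4 lower, against 13.8% and 14.4% of all genes. The very large GTPase gene Gvin1 averaged 15.2 ± 1.37 CPM with CKBA and 35.8 ± 7.28 CPM with DMSO (log2 fold change -1.23 ± 0.16, edgeR adjusted p = 0.00314), a call that held with each library left out and was lost with replicates 1 and 2 summed (adjusted p = 0.101). AW112010 differed by -0.73 ± 0.14 (edgeR adjusted p = 0.0115), and the T-cell-specific GTPase genes Tgtp1 and Tgtp2 by -0.54 ± 0.13 and -0.93 ± 0.20 (0.0240 and 0.0181). Tgtp1 and Tgtp2 are near-identical copies, so the division of reads between them is uncertain. The calls of AW112010, Tgtp1 and Tgtp2 were each lost without DMSO replicate 1 or 2, that of Tgtp1 also without CKBA replicate 1 or 2, and that of Tgtp2 also without CKBA replicate 2. Ifi47, another immunity-related GTPase, averaged 160 ± 30.4 CPM with CKBA and 180 ± 28.7 CPM with DMSO (edgeR adjusted p = 0.515). Cd274, the PD-L1 gene, had 57.5, 55.1 and 186 CPM with CKBA and 22.4, 23.8 and 38.1 CPM with DMSO, highest in replicate 3 of each group (log2 fold change 1.83 ± 0.48, edgeR adjusted p = 0.0370). Its call was lost without CKBA replicate 1 or 2 or DMSO replicate 1 or 2.

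Markers of T cells and of other cells moved beside these results. All 8 T cell markers had estimates below 0, and 2 were called lower, against 9.23% of all genes (5 with the replicate block, against 14.4%). Of 11 tested CD8 and NK cell genes, 1 was higher and 5 lower with CKBA, against 7.86% and 9.23% of all genes. The summed level of the list was 170 to 181 CPM with CKBA and 360 to 439 CPM with DMSO. The 12 B cell genes summed to 288, 272 and 115 CPM with CKBA and 125, 134 and 192 CPM with DMSO, higher with CKBA in replicates 1 and 2 and lower in replicate 3. The 20 myeloid and dendritic genes summed to 43.1 to 56.6 CPM with CKBA and 51.3 to 118 CPM with DMSO. Ly6g alone had no count with CKBA and 63.2, 63.3 and 2.35 CPM with DMSO, and without Ly6g and the member Bst2 the list summed to 12.2 to 22.5 CPM with CKBA and 16.1 to 24.3 CPM with DMSO. The part of any of these markers or cells in the interferon results was not tested.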

How the data were processed

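RNA-seq libraries (3 CKBA, 3 DMSO) were grouped by their titles. Per the submitters' processing notes, the authors used CASAVA 1.8, RSEM (version not given), edgeR and the GRCm38 build; the aligner and annotation release were not given in the sources used here. The deposited expected counts from RSEM were all whole numbers, so rounding changed none. RSEM divides reads between near-identical genes. FPKM of each library, computed by the authors, served for levels between genes and in an alternative. The authors' own p-values, FDR and log2 fold changes, deposited beside them, entered only a comparison of calls. FPKM group means and a pathway annotation table were not used.

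Of 47725 genes, 23224 had no count. Counts were tested with edgeR 4.0.16 (R 4.3.3): TMM scaling, filterByExpr at a minimum count of 10, robust quasi-likelihood F test, Benjamini-Hochberg adjustment over 13928 genes, threshold 0.05. CPM use TMM-scaled library sizes, and pair ratios use a pseudocount of 0.5 CPM. DESeq2 1.42.0 and limma 3.58.1 (log2 of FPKM plus 1 or 0.1) were alternatives, as were RLE scaling, no filter and each library left out. Depth was 19838347 to 25331863 counts; a floor of 3 counts covers counting error only. Whether the library kit kept strand was not given, so overlapping genes on opposite strands cannot be told apart.

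The replicate numbers come from the titles. Deviations from the group means correlated at 0.24, 0.24 and 0.44 between CKBA and DMSO libraries numbered 1, 2 and 3, but also at 0.24 (CKBA 1 with DMSO 2) and 0.23 (CKBA 2 with DMSO 1). Pairs of replicate 3 with another number gave -0.33 to -0.31. The data thus set replicate 3 apart and do not tell replicates 1 and 2 apart. The main test used the group alone. For the pair ratios and the replicate block, the numbers were treated as pairs because each correlation of like numbers exceeded 0.1. Replicates 1 and 2 of unlike number exceeded 0.1 as well, so this cut-off does not show that they are paired as numbered.

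The members and lists were chosen with earlier results of these data known. The rule for named genes took all 39 members, up to 4 called genes per pathway list by adjusted p, or the 2 most abundant where none passed, and a set of pathway genes, of which a member is not reported here. Gbp2b, Ly6g, Il10rb, Cish, keratinocyte markers and the neighbours of the Gbp genes are named outside it, after their values were seen. Gene positions are from GENCODE M21, promoters from RefSeq on GRCm38.p6.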

Additional observations from a re-analysis of the deposited data

How the results depend on the processing

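Counts of calls moved with the handling of replicates. All genes called higher were 1095 as reported, 1922 with the replicate block, 56 with replicates 1 and 2 summed, 3660 with replicate 3 of both groups left out and 251 to 1961 with a library left out; those called lower were 1286, 2009, 54, 3728 and 390 to 2014. Type I targets called higher were 3, and 5 with the block, 1 on FPKM with a pseudocount of 1 or 0.1, 0 summed, 5 without replicate 3 and 0 to 3 with a library left out; those called lower were 3, 5 with the block, 0 summed, 7 without replicate 3 and 0 to 5 with a library left out. GTPase genes called higher were 1, and 2 with DESeq2 or the block, 0 summed, 3 without replicate 3 and 0 to 2 with a library left out; those called lower were 3, and 0 with no filter beyond 1 count, 0 summed, 5 without replicate 3 and 0 to 4 with a library left out. The type I median of 0.03 ran from -0.23 to 0.12 with a library left out. The summed and replicate 3 settings were chosen after seeing the data. The block made Irf1, Ddx58, Ifitm3, Xaf1 and Iigp1 pass and changed no other member's call. Under RLE scaling all 31 tested members kept direction and call. Directions turned only in members not called either way. With a library left out, the log2 fold change ran from -0.13 to 0.49 for Isg15, from -0.34 to 0.16 for Oas3, from -0.26 to 1.18 for Usp18, from -0.29 to 0.14 for Gbp4, from -0.070 to 0.21 for Gbp8, from -0.15 to 0.075 for Irgm1 and from -0.15 to 0.095 for Irgm2. It also turned for Gbp4 with the block (0.023), on FPKM plus 1 (0.0067), on FPKM plus 0.1 (0.019) and summed (0.12), for Irgm1 summed (0.028), and without replicate 3 of both groups for Oas3 (0.080) and Gbp8 (-0.17). The causes were not tested. Depth limits the 8 members that failed the filter.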

Other observations

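In the authors' deposited table, 3 of the 39 members were higher and 7 lower with CKBA at an FDR under 0.05, and 8 of them were also among the 10 called here. The share of all genes called in that table was not counted, so these numbers cannot be set against it.

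Among interferon-stimulated genes outside the members, chosen here after their values were seen, Ifitm1 averaged 8.82 ± 3.18 CPM with CKBA and 37.7 ± 16.8 CPM with DMSO (SD, n = 3 each; log2 fold change -2.10 ± 0.41, edgeR adjusted p = 0.0130). That call was lost without any CKBA replicate, DMSO replicate 1 or DMSO replicate 2. Ifi203 and Mndal, neighbouring DNA-binding genes of the PYHIN family, averaged 42.1 ± 20.5 and 42.5 ± 18.8 CPM with CKBA and 17.8 ± 14.7 and 21.5 ± 15.7 CPM with DMSO. They missed the threshold (edgeR adjusted p = 0.156 and 0.204) and passed it with the replicate block (adjusted p = 0.00259 and 0.00220).

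Near the chromosome 5 Gbp genes, Lrrc8c, a volume-regulated channel subunit, averaged 201 CPM with CKBA and 271 CPM with DMSO and was lower (log2 fold change -0.43 ± 0.08, edgeR adjusted p = 0.00967), while Abcg3 missed the threshold (1.01 ± 0.31, edgeR adjusted p = 0.0584).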
